A study of Homo sapiens with 21 samples.

Results

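CRT35 and CRT34 are cell lines of BRAF-mutant human melanoma that were derived from A375 tumors which had become resistant to combined BRAF and MEK inhibition in mice. Both are SOX10 deficient, and here CRT35 was compared directly with CRT34 while both were on inhibitors. The CRT35 Combo and CRT34 Combo groups held 3 libraries each, 6 of the 21 in the series, and were defined by their labels. Combo is the BRAF inhibitor PLX4720 at 1 µM with the MEK inhibitor PD0325901 at 35 nM, the medium in which these lines were kept. CRT35 DMSO and CRT34 DMSO, the same lines with the solvent in place of the inhibitors and of unstated duration, also had 3 libraries each, and parental A375, untreated, had 3. Each CRT group is a single line, so a difference between the lines cannot be told apart from the history of 1 tumor or 1 culture. The labels do not say whether replicates were separate cultures. The p-values therefore measure only the spread between libraries within groups, estimated over all 21 libraries.

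Melanoma cells with mutant BRAF depend on signaling through the kinases BRAF, MEK and ERK, and cells that survive both inhibitors often lose the melanocyte program and take on mesenchymal features. SOX10 is the transcription factor that keeps neural crest and melanocyte genes active, and its loss is one known route to such tolerance. Mesenchymal melanoma cells are known for making extracellular matrix and for secreting cytokines and chemokines under the control of NF-kappaB. Lines that share the loss of SOX10 can still differ in any of these programs.

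Levels are the authors' normalized expression values, comparable between libraries for 1 gene but not between genes. Changes are log2 differences, CRT35 minus CRT34, on the log2(value + 1) scale, where a pseudocount shrinks changes of low values, with limma's standard error (SE) and a Benjamini-Hochberg p adjusted over the 19290 genes tested. Calling a gene required both an adjusted p no higher than 0.05 and a fold change of 2 or more. The 6 Combo libraries had totals of 59.2 M to 63.8 M units and an approximate depth of 65.0 M to 71.7 M reads. SOX10 was listed at 0 in all 6, as were the melanocyte marker MLANA and the T cell marker CD3E. PMEL, another melanocyte marker, had 65.3, 37.6 and 42.1 in CRT35 Combo, against 59.6, 39.0 and 51.7 in CRT34 Combo, and 7 of the 20 melanocytic genes listed for this comparison were too low to be tested. The summed level of the 20 genes was 46770.5 to 61644 in CRT35 Combo and 43687 to 65655 in CRT34 Combo, against 34308 to 42222 in parental cells. Such a sum is set by the genes with the highest values and does not describe most members. In bulk RNA, fewer cells of a type and less RNA per cell cannot be told apart.

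CRT34 Combo replicate 3 stood apart from its group. Its root mean square log2 distance to the CRT34 DMSO libraries was 0.871 to 1.04, and its distance to replicates 1 and 2 of its own group was 0.906 to 1.04. Replicates 1 and 2 lay 0.703 from each other and 1.04 to 1.25 from the CRT34 DMSO libraries. Such a distance was not particular to CRT34 Combo. CRT34 DMSO replicate 1 lay 0.971 and 0.894 from replicates 2 and 3 of its group, which lay 0.641 from each other. Results are given with and without CRT34 Combo replicate 3. Its DUSP6, a phosphatase gene switched on by ERK, was as low as in its group (1751, 1931 and 2173 in CRT34 Combo replicates 1 to 3, against 8229.8, 12614 and 13414 in CRT34 DMSO).

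Limma called 1333 genes between the lines on inhibitors, 6.91% of those tested. Of these, 612 were higher in CRT35 (3.17%) and 721 were lower (3.74%), 1072 were protein-coding and 200 were long non-coding RNAs. In 1252 of the 1333 all 3 libraries of one line lay above all 3 of the other, a pattern that held for 13.9% of all genes tested in the higher direction and 15.9% in the lower. Without CRT34 Combo replicate 3 there were 1466 calls (7.6%), 640 of them higher (3.32%) and 826 lower (4.28%). With the replicate number as a block there were 1450 (7.52%), 679 higher (3.52%) and 771 lower (4%). Of the 1333 calls, 1058 were made in the same direction without replicate 3 and 1312 with the block. In 48 of the 1333 genes the log2 difference was 5 or more in size. Leaving out each of the 6 Combo libraries in turn, 686 of the 1333 calls were kept every time, and calls that were not are given below with the libraries that ended them. Counts of list members called, given below, are to be read beside the 6.91%, 3.17% and 3.74% of all genes.

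The largest difference was in COL4A1 (chr13:110148963-110307157, minus strand of GRCh38), which codes for the alpha 1 chain of type IV collagen, the main collagen of basement membranes. COL4A1 had 20.4, 12.4 and 21.5 in CRT35 Combo, against 89798, 119188 and 123524 in CRT34 Combo, so that the CRT34 mean was 6124 times the CRT35 mean. The log2 difference was -12.52 (SE 0.22, adjusted p = 3.27e-18), or -12.44 without CRT34 Combo replicate 3. COL4A2 (chr13:110305812-110513209, plus strand), the gene of the alpha 2 chain with which that chain assembles, had 167, 283 and 265 in CRT35 Combo and 46885, 45106 and 33787 in CRT34 Combo (log2 -7.48, SE 0.24, adjusted p = 9.34e-14). Parental A375 expressed both, COL4A1 at 13289, 14701 and 17579 and COL4A2 at 12106, 13316 and 15752, so CRT35 lay below the parental line and CRT34 above it. The other type IV collagen genes tested were not called. COL4A5 had 3924, 2695 and 2412 in CRT35 Combo and 2813, 3118 and 3102 in CRT34 Combo (log2 -0.03, adjusted p = 0.966), and COL4A6 and COL4A4 had log2 differences of -1.02 and -0.24 (adjusted p = 0.263 and 0.862). Of the 10 nearest tested neighbors, 5 on each side of the pair, 2 were called, LIG4 and ABHD13, and the neighbors' log2 differences ran from -1.11 to 0.90 with a median of -0.68.

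COL4A1 and COL4A2 are read in opposite directions from a shared stretch of promoter, and both were low in the same 3 libraries, so that stretch is shown. Their RefSeq start sites lie 127 bases apart. The window runs from 250 bases before to 50 after the COL4A2 start on GRCh38.p14 (RefSeq, chr13:110307034-110307333, plus strand), 226 of its 300 bases are also in the COL4A1 window, and the capitals mark the only GC box, GGGCGG, a motif present on either strand in 45% of 35116 promoter windows.
COL4A2 promoter: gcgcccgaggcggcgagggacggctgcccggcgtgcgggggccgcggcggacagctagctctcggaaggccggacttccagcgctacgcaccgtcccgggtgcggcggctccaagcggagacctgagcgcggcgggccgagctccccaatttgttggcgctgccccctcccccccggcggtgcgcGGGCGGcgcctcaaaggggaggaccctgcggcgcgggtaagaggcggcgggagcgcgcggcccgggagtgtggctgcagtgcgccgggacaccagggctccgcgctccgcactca
The match is a description of letters and not of a bound factor. This motif was looked for after the values had been seen.

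The rule that named the other 10 lower genes required calls with and without CRT34 Combo replicate 3 and libraries that did not overlap. BMP5, a bone morphogenetic protein, had 22.7, 9.55 and 42.7 in CRT35 Combo, against 5462, 4656 and 4079 in CRT34 Combo (log2 -7.73, SE 0.62, adjusted p = 1.18e-07). CDCP1, a transmembrane substrate of SRC family kinases, had 58.6, 92.6 and 35.3 in CRT35 Combo and 1891, 3435 and 5512 in CRT34 Combo (log2 -5.81, SE 0.41, adjusted p = 2.6e-08). The lowest CRT34 value was 95.6 times the highest CRT35 value for BMP5 and 20.4 times for CDCP1. MEOX2, a mesodermal homeobox factor, had 2.52, 8.58 and 7.10 in CRT35 Combo and 743, 477 and 1328 in CRT34 Combo, below the 4696, 6319.98 and 6115 of parental cells in both lines. KCNMB1, the beta subunit of the large-conductance potassium channel of smooth muscle, had 4.27, 10.4 and 8.38 in CRT35 Combo and 824, 913 and 739.9 in CRT34 Combo and was listed at 0 in all 3 parental libraries. A2M, the protease inhibitor alpha-2-macroglobulin, had 37.4, 45.5 and 94.4 in CRT35 Combo and 10307, 5341 and 614 in CRT34 Combo, where replicate 3 was the lowest. VGLL2, a cofactor of TEAD factors, had 3.59, 0 and 0.946 in CRT35 Combo and 722, 793 and 77.4 in CRT34 Combo, again lowest in replicate 3. HS6ST3, a heparan sulfate sulfotransferase, SUCNR1, the succinate receptor, PLCXD3 and EPB41L3, a membrane skeleton protein, had log2 differences of -6.31, -5.99, -5.27 and -4.53 (adjusted p from 3.79e-08 to 0.000444).

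**Figure D1:**
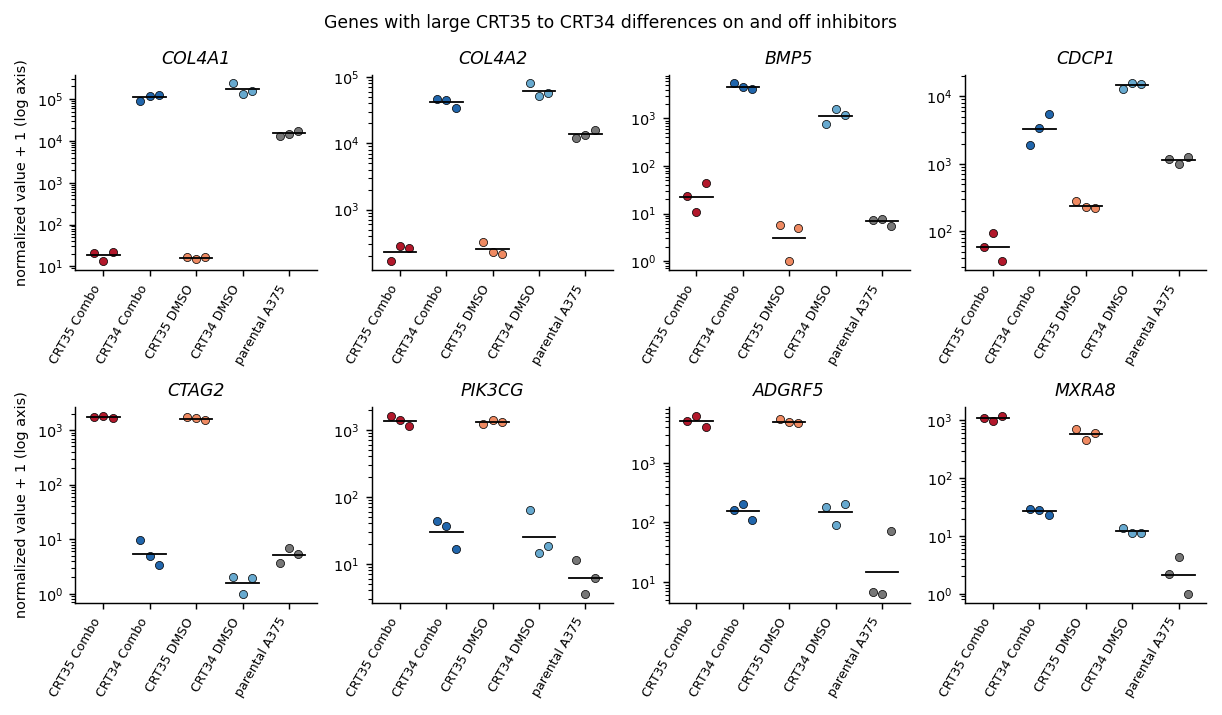
Normalized value + 1 on a log axis in each library for 4 genes lower in CRT35 (top row) and 4 genes higher in CRT35 (bottom row), 1 point per library and a line at the mean of log2(value + 1). In all 8 genes the CRT35 and CRT34 points lie apart both on inhibitors and in DMSO, as for COL4A1 at 12.4 to 21.5 in CRT35 Combo, against 89798 to 123524 in CRT34 Combo.

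Among the 12 genes named as higher in CRT35, CTAG2 (chrX:154651972-154653579) had the largest difference. CTAG2, a cancer-testis antigen normally restricted to the germ line, had 1751, 1791 and 1654 in CRT35 Combo, against 8.76, 3.97 and 2.34 in CRT34 Combo (log2 8.31, SE 0.46, adjusted p = 1.14e-09). It has a close relative in CTAG1B, and some reads of such genes may be split between them. CTAG1B, picked after its values were seen, went the other way (145, 120.3 and 117 in CRT35 Combo, against 649, 674 and 287 in CRT34 Combo, log2 -1.97, adjusted p = 0.00242). PIK3CG, the gamma catalytic subunit of phosphoinositide 3-kinase that is typical of leukocytes, had 1589.8, 1378 and 1121 in CRT35 Combo and 42.9, 35.1 and 15.4 in CRT34 Combo (log2 5.51, SE 0.99, adjusted p = 0.000895). PTPRC, the pan-leukocyte marker CD45, had 19.6, 12.8 and 14.1 in CRT35 Combo and 44.5, 10.96 and 4.55 in CRT34 Combo. The 18 leukocyte markers listed summed to 8487 to 17824 in CRT35 Combo and 8361 to 9976 in CRT34 Combo, against 1659 to 1811 in parental cells, and 5 of them were at 0 in all 3 libraries of each of these groups. The part of other cells in the PIK3CG values was not tested. ADGRF5, an adhesion G protein-coupled receptor, had 5122, 6133 and 4113 in CRT35 Combo and 162, 203 and 107 in CRT34 Combo. MXRA8, a matrix remodeling-associated membrane protein, had 1100.5, 971 and 1181 in CRT35 Combo and 28.3, 26.9 and 22.4 in CRT34 Combo. The log2 differences of ADGRF5 and MXRA8 were 5.04 and 5.34 (SE 0.63 and 0.42, adjusted p = 2.59e-05 and 1.1e-07). ITGB2, the beta 2 integrin chain of leukocytes, and CD24, a glycosylated surface antigen, had log2 differences of 3.72 and 3.43 (adjusted p = 0.000143 and 3.47e-05). For these 6 genes the value without CRT34 Combo replicate 3 differed by at most 0.57, and that library was the lowest of its group in all 6. The rule also named COL1A1 and the inflammatory genes CSF2, IL1A, IL1B, CXCL3 and BDKRB1, which are described below.

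The same comparison was made off inhibitors. Limma called 1565 genes between CRT35 DMSO and CRT34 DMSO (8.11%), 712 higher (3.69%) and 853 lower (4.42%). CRT35 DMSO replicate 1 was the shallowest library of the series, at about 27.1 M reads, and without it 1417 genes were called. Of the 1333 genes called on inhibitors, 724 had a call of the same direction in DMSO, which was 54.3% of the Combo calls and 46.3% of the DMSO calls, 2 were called the opposite way and 607 were not called in DMSO. All 12 named lower genes were called lower in DMSO as well, with COL4A1 at 15.8, 13.8 and 15.5 in CRT35 DMSO, against 236477, 133674 and 157150 in CRT34 DMSO (log2 -13.38, adjusted p = 9.61e-19). Of the 12 named higher genes, 6 were called higher in DMSO, namely CTAG2, PIK3CG, MXRA8, ADGRF5, ITGB2 and CD24. The remaining 6, CSF2, IL1B, IL1A, CXCL3, COL1A1 and BDKRB1, had DMSO log2 differences of 0.36, 0.79, 1.68, 0.26, 1.15 and 1.68 (adjusted p from 0.0955 to 0.909).

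**Figure D2:**
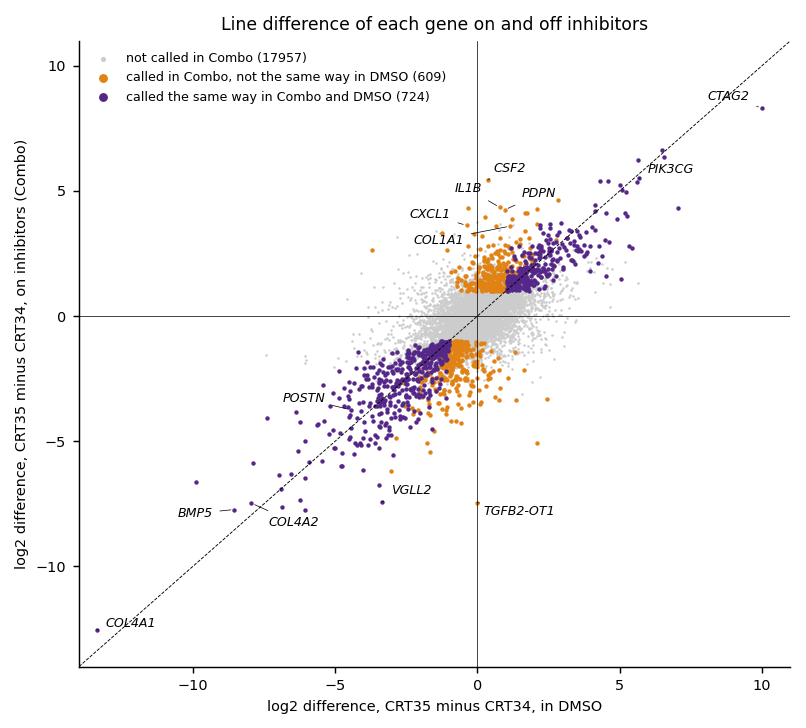
Each point is 1 of 19290 genes, with its CRT35 minus CRT34 log2 difference in DMSO on the x axis and on inhibitors on the y axis, and the dashed line marks equal differences. The 724 genes called the same way in both (purple) lie along that line, with COL4A1 and CTAG2 at its ends, while CSF2, IL1B, PDPN and CXCL1 lie near 0 on the x axis and above 3 on the y axis.

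Whether the line difference itself changed with the inhibitors was tested as the difference of the 2 line effects. With all libraries, 2 genes were called (0.0104%), both lower, and 1343 had an unadjusted p under 0.05. Without CRT34 Combo replicate 3 the count was 223 (1.16%), 134 higher (0.695%) and 89 lower (0.461%), and with the replicate number as a block and all libraries it was 16. The 2 calls with all libraries were TGFB2-OT1, a transcript inside the TGFB2 locus, and OR51B5, an olfactory receptor gene model that overlaps HBE1. TGFB2-OT1 was listed at 0 in all 3 CRT35 Combo libraries and had 294, 182 and 97.3 in CRT34 Combo. It was also listed at 0 in all 6 DMSO libraries of both lines. Among the CRT libraries it thus reached the filter level in CRT34 Combo alone, and groups at 0 add no spread to the estimate. Reads of TGFB2-OT1 may belong to TGFB2 itself, which was also lower in CRT35 Combo. OR51B5 had 206, 198 and 188 in CRT35 Combo and 1411, 1481 and 811 in CRT34 Combo, against 276, 341 and 327 in CRT35 DMSO and 251, 426 and 438 in CRT34 DMSO (difference of the line effects -2.39, adjusted p = 0.00523). HBE1, the embryonic epsilon globin, had 205, 178 and 183 in CRT35 Combo and 1745, 1203 and 942 in CRT34 Combo (log2 -2.73, adjusted p = 6.54e-05).

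Of the 50 cytokine, NF-kappaB target and chemokine genes tested, 9 were higher in CRT35 on inhibitors, beside 3.17% of all genes. None of those 9 was called in DMSO, where 3.69% of all genes were called higher. CRT34 Combo replicate 3 moved the count. CSF2, the growth factor GM-CSF, had 416, 1516 and 1114 in CRT35 Combo, against 0.874, 11.9 and 352 in CRT34 Combo (log2 5.45, SE 1.26, adjusted p = 0.00671). Replicate 3 was the highest of CRT34. IL1B and IL1A, the interleukin-1 genes that lie side by side on chromosome 2 (chr2:112773925-112836816), moved in the same direction. IL1B had 8329, 8259 and 2899 in CRT35 Combo and 164, 172 and 834 in CRT34 Combo (log2 4.34, SE 0.61, adjusted p = 8.91e-05). IL1A had 1233, 795 and 517 in CRT35 Combo and 20.1, 23.3 and 194 in CRT34 Combo (log2 4.10, SE 0.72, adjusted p = 0.000792). BDKRB1, the inducible bradykinin B1 receptor, had 2741, 1561 and 2198 in CRT35 Combo and 113, 72.2 and 964 in CRT34 Combo (log2 3.40, SE 0.66, adjusted p = 0.00173). Without replicate 3 the log2 differences of CSF2, IL1B, IL1A and BDKRB1 were 7.50, 5.11, 5.14 and 4.53. In a fit of the 6 Combo libraries alone, which has fewer samples to set the spread, CSF2 and BDKRB1 were not called (adjusted p = 0.119 and 0.0771).

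The neutrophil-attracting CXCL chemokines, whose genes cluster on chromosome 4 (chr4:73836640-74099196), included genes in which CRT34 replicate 3 reached CRT35 levels. CXCL1 had 56392, 30345 and 23329 in CRT35 Combo, against 821, 938 and 27795 in CRT34 Combo (log2 3.62, SE 0.88, adjusted p = 0.00938). CXCL2 had 1934, 925 and 955 in CRT35 Combo and 32.4, 44.1 and 1498 in CRT34 Combo (log2 3.19, adjusted p = 0.0316), and CXCL3 had 2684, 1029 and 1028 in CRT35 Combo and 25.4, 28.8 and 929.7 in CRT34 Combo (log2 3.98, adjusted p = 0.00967). In all 3 genes CRT34 replicates 1 and 2 lay far below every CRT35 library, whereas replicate 3 lay within the CRT35 range for CXCL1 and CXCL2 and just under it for CXCL3. CXCL8, the interleukin-8 gene, had 98697, 67578 and 47178 in CRT35 Combo and 1203, 3476 and 84573 in CRT34 Combo and was not called (log2 3.27, adjusted p = 0.0594). With the replicate number as a block its adjusted p was 0.0443, and without replicate 3 it was 0.000691 at a log2 difference of 5.05. CXCL6, a low member of the cluster, had 34.6, 11.4 and 58.4 in CRT35 Combo and 0, 0 and 2.45 in CRT34 Combo (log2 4.30, adjusted p = 0.00102). The calls of CXCL1 and CXCL3 ended without CRT34 Combo replicate 2 (adjusted p = 0.065 and 0.065), and that of CXCL2 ended when any 1 of CRT35 Combo replicates 1, 2 and 3 and CRT34 Combo replicates 1 and 2 was left out (adjusted p 0.0622 to 0.167).

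The promoters of CXCL1, CXCL2 and CXCL3 are shown because these genes moved together. Each window runs from 250 bases before to 50 after the start (RefSeq, GRCh38.p14, chr4:73869143-73869442 on the plus strand, chr4:74099146-74099445 and chr4:74038640-74038939 on the minus strand), printed in the direction of the gene, with the bases that match the degenerate NF-kappaB consensus in capitals, overlapping matches on each strand.
CXCL1 promoter: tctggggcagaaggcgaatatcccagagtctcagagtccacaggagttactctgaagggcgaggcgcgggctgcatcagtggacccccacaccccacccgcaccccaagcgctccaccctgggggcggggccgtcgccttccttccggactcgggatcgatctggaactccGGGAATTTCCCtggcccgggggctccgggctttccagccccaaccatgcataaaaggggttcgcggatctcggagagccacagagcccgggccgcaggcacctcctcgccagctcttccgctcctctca
CXCL2 promoter: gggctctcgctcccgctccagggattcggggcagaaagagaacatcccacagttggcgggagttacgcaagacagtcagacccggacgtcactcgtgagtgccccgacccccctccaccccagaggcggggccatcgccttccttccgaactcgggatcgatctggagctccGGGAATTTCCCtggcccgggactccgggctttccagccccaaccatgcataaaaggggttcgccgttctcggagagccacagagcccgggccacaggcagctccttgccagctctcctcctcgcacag
CXCL3 promoter: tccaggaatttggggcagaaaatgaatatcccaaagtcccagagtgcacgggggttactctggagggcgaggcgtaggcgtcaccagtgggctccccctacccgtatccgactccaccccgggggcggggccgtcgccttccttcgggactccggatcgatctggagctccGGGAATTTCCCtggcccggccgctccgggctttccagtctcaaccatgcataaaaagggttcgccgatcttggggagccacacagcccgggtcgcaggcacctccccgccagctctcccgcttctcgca
The NF-kappaB consensus, chosen after the values were seen and searched on both strands, matched in 4 of the 8 called higher cytokine and chemokine genes with a window, these 3 and CXCL6, and in 3956 of 35116 windows in all (11.3%). A narrower form of it, searched first, matched in the same 4 and in 491 windows (1.4%). The AP-1 motif TGANTCA matched in 1 of the 8, IL1A, and in 7.71% of all windows. Of the 24 named genes 20 had a window, 9 of the higher and 11 of the lower ones. AP-1 matched in 1 of the 9 and 0 of the 11, the TEAD motif GGAATG in 1 and 1 (14% of all windows) and the E-box CACGTG in 0 and 1 (7.26%). The matches describe letters and not binding, and the CXCL genes arose by duplication, so their windows are not independent.

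Of 19 chemokine genes and receptors tested, 4 were called higher (CXCL1, CXCL2, CXCL3 and CXCL6) and 3 lower, with a list median of 1.21, against 0.00 for all genes. With the replicate number as a block 7 were higher and 2 lower. The lower ones were CX3CL1, the membrane-bound chemokine fractalkine, CXCR4, listed at 0 in all 3 CRT35 Combo libraries and at 1.00, 5.47 and 22.7 in CRT34 Combo, and ACKR3, a scavenging receptor. The CX3CL1 and CXCR4 calls ended without CRT34 Combo replicate 3 (adjusted p = 0.058 and 0.057). CX3CL1 had 4.01, 3.89 and 3.62 in CRT35 Combo and 19.6, 19.1 and 55.3 in CRT34 Combo. ACKR3 had 8.43, 8.09 and 14.4 in CRT35 Combo and 54.6, 53.3 and 48.8 in CRT34 Combo (adjusted p = 0.0495), and the call ended with the replicate block (adjusted p = 0.0591) and when any 1 of CRT35 Combo replicates 1, 2 and 3 and CRT34 Combo replicates 1, 2 and 3 was left out (adjusted p 0.0721 to 0.133). Of 31 NF-kappaB targets and cytokines, 5 were called higher and 1 lower, with a median of 0.77. RELB, an NF-kappaB subunit, and IL1R1, the interleukin-1 receptor, were called besides CSF2, IL1A and IL1B (log2 1.30 and 1.01, adjusted p = 0.0379 and 0.0282). IL1RL1, the interleukin-33 receptor, was lower (1.20, 1.52 and 0 in CRT35 Combo, against 42.2, 44.7 and 5.39 in CRT34 Combo). RELB ended when any 1 of CRT35 Combo replicates 1, 2 and 3 and CRT34 Combo replicates 1 and 2 was left out (adjusted p 0.0543 to 0.186). IL1R1 ended when any 1 of CRT35 Combo replicates 1 and 3 and CRT34 Combo replicates 1 and 2 was left out (adjusted p 0.0701 to 0.101), and IL1RL1 ended when any 1 of CRT35 Combo replicate 3 and CRT34 Combo replicate 2 was left out (adjusted p 0.0538 to 0.0612). In DMSO the chemokine list had 1 higher and 4 lower and the NF-kappaB list 0 higher and 5 lower, with medians of -0.38 and -0.27.

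Without CRT34 Combo replicate 3, 10 chemokine genes and 17 NF-kappaB targets and cytokines were called higher, 27 of the 50 tested, against 9 with all libraries. The shares of all genes called higher were 3.32% and 3.17%. None of the 27 was called higher in DMSO, beside 3.69% of all genes. Replicate 3 lay above both other CRT34 Combo libraries in 40 of the 50, compared with 36.5% of all genes. Replicates 1 and 2 lay below all 3 CRT34 DMSO libraries in 37 of the 50 and replicate 3 in 14. The share of all genes with these 2 patterns was not counted, so the counts describe only these members. Without replicate 3 the difference of the line effects was called higher for 17 of the 50, beside 0.695% of all genes, and with all libraries for 0. TNFAIP3, an NF-kappaB feedback inhibitor picked after its values were seen, had 7022, 4631 and 3168 in CRT35 Combo and 504, 929 and 10047 in CRT34 Combo (log2 1.48, adjusted p = 0.153, or 2.77 and 2.32e-05 without replicate 3). What set replicate 3 apart was not tested.

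**Figure D3:**
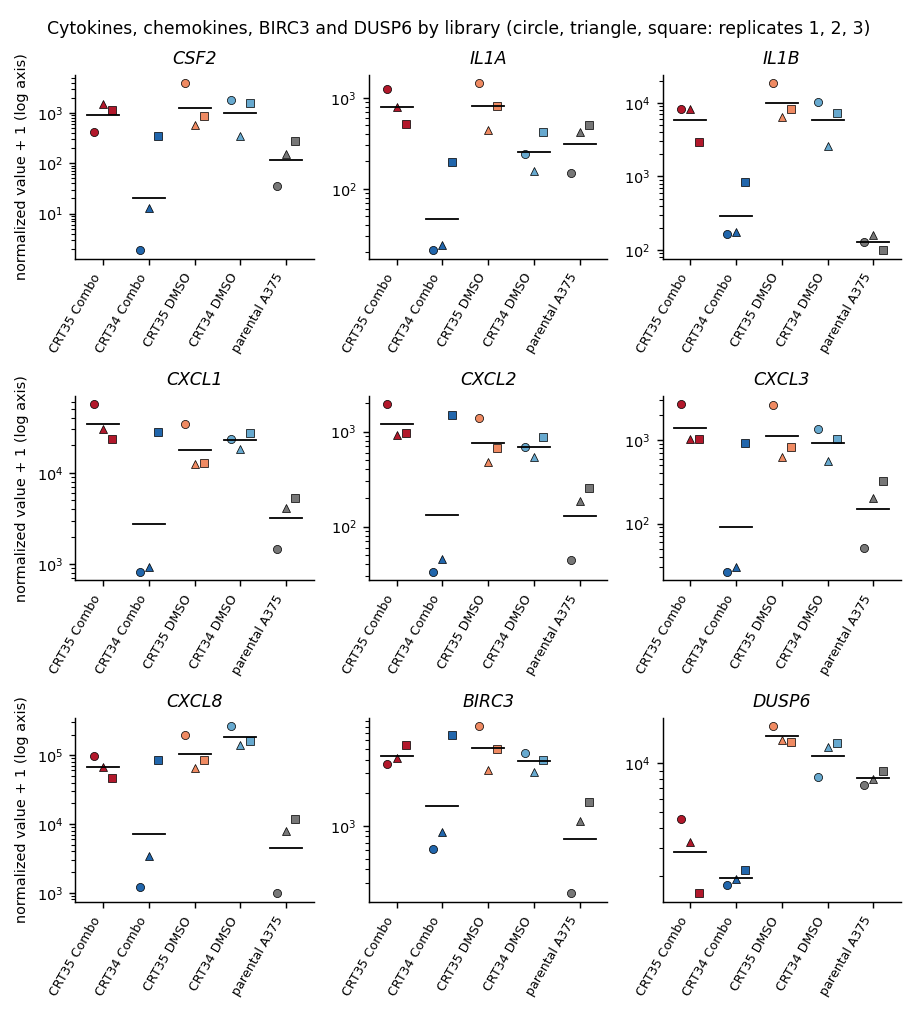
Normalized value + 1 on a log axis per library for 7 cytokine and chemokine genes, BIRC3 and DUSP6, with a line at the mean of log2(value + 1) and the symbol giving the replicate number. In CRT34 Combo the square, replicate 3, lies far above the circle and triangle for CXCL1 (27795, against 821 and 938), while for DUSP6 the 3 CRT34 Combo points lie together at 1751 to 2173.

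Genes of the inhibitor of apoptosis (IAP) family, which block caspases and control NF-kappaB signaling, were examined because the study treated these lines with an IAP antagonist. None of 25 genes of the IAP family and death receptors was called by limma with all libraries, and 2 were called higher without replicate 3. With all libraries 9 had an unadjusted p under 0.05. The share of all genes at that unadjusted p was not counted, so the 9 cannot be read as an excess. BIRC3, which codes for cIAP2 and is itself a target of NF-kappaB, had 3678, 4133 and 5451 in CRT35 Combo, against 608, 871 and 6742 in CRT34 Combo (log2 1.51, SE 0.71, adjusted p = 0.172). Replicate 3 of CRT34 had the highest value of all 6, and without it the log2 difference was 2.58 (adjusted p = 0.00535). BIRC2, which codes for cIAP1, had 9995, 11182 and 11212 in CRT35 Combo and 6408, 7517 and 11239 in CRT34 Combo (log2 0.40, adjusted p = 0.161). XIAP, a direct caspase inhibitor, had 6826, 6262 and 6078 in CRT35 Combo and 4461, 5503 and 6329.9 in CRT34 Combo (log2 0.25, adjusted p = 0.606). Among 16 BCL2 family genes, BCL2A1, an anti-apoptotic member, was called (329, 357 and 351 in CRT35 Combo, against 19.2, 27.4 and 190.1 in CRT34 Combo, log2 2.86, adjusted p = 0.00403), with 2 called higher without replicate 3.

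Matrix genes differed in both directions. Of 23 fibrillar collagens and their modifying enzymes, 3 were called higher and 0 lower, with a median of 0.57 on inhibitors and 0.06 in DMSO. COL1A1, the alpha 1 chain of type I collagen, had 55681, 58809 and 169179 in CRT35 Combo, against 3219, 5477 and 17837 in CRT34 Combo (log2 3.59, SE 0.52, adjusted p = 0.000127), and was highest in replicate 3 of each line. COL1A2, its partner chain, had 184084, 153659.6 and 202259 in CRT35 Combo and 52919, 49535 and 34068 in CRT34 Combo (log2 2.00, SE 0.65, adjusted p = 0.0475). Its libraries did not overlap, but its call ended with the replicate block (adjusted p = 0.0574) and when any 1 of CRT35 Combo replicates 1, 2 and 3 and CRT34 Combo replicates 1, 2 and 3 was left out (adjusted p 0.0654 to 0.124). LOXL3, a collagen cross-linking oxidase, had 7422, 7541 and 8386 in CRT35 Combo and 2128, 2301 and 1787 in CRT34 Combo (log2 1.91, adjusted p = 3.42e-06). Of 39 other matrix proteins, 7 were higher and 4 lower on inhibitors and 4 higher and 9 lower in DMSO. The type VI collagen genes COL6A1 and COL6A2, with COL13A1 and EMILIN1, an elastic fiber protein, were the higher ones with the lowest p, at log2 differences of 2.25, 2.42, 2.53 and 2.53 (adjusted p from 3.36e-05 to 0.000313). COL6A1 had 28789, 27344 and 42095 in CRT35 Combo and 6869, 4937 and 9013 in CRT34 Combo, against 54775, 33555 and 27296 in CRT35 DMSO and 39536, 20217 and 39431 in CRT34 DMSO.

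POSTN, periostin, a matricellular protein of fibroblasts, was lower in CRT35 on and off inhibitors. It had 43658, 23766 and 22975 in CRT35 Combo, against 483490.1, 376964 and 312351 in CRT34 Combo (log2 -3.74, SE 0.31, adjusted p = 1.81e-07), and 53.01, 55.1 and 42.6 in parental cells. ELN, elastin, had 9.30, 12.6 and 130.4 in CRT35 Combo and 188, 290.4 and 1635 in CRT34 Combo, highest in replicate 3 of each line (log2 -4.08, adjusted p = 0.00296). IGFBP5, an insulin-like growth factor binding protein, had 12371, 6176 and 3952 in CRT35 Combo and 63307, 42843 and 10431 in CRT34 Combo. Those groups overlapped, and the call (log2 -2.18, adjusted p = 0.0162) ended when any 1 of CRT35 Combo replicates 2 and 3 and CRT34 Combo replicates 1 and 2 was left out (adjusted p 0.0534 to 0.0859). VCAN, the proteoglycan versican, was lower at -1.29 (adjusted p = 0.0219) and ended when any 1 of CRT35 Combo replicate 3 and CRT34 Combo replicate 2 was left out (adjusted p 0.0696 to 0.138). FN1, fibronectin, was not called (134925, 194492 and 176535 in CRT35 Combo, against 144079, 454601 and 256537 in CRT34 Combo, adjusted p = 0.218). Of 22 basement membrane genes, 4 were higher and 2, the COL4A1 and COL4A2 pair, were lower. NID2, nidogen 2, HSPG2, perlecan, and LAMB3, a laminin chain, had log2 differences of 1.94, 1.58 and 1.85 (adjusted p = 0.00074, 0.00096 and 0.00244), and LAMA3, another laminin chain, had 1.35 (adjusted p = 0.0434). LAMA3 ended when any 1 of CRT35 Combo replicates 1 and 2 and CRT34 Combo replicate 3 was left out (adjusted p 0.139 to 0.215).

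Of 31 matrix proteases and inhibitors, 4 were higher and 2 lower. MMP14, a membrane-bound collagenase, had 10952, 12069 and 14955 in CRT35 Combo and 4447, 5109 and 8138 in CRT34 Combo (log2 1.14, adjusted p = 0.00217), under the fold threshold without CRT34 Combo replicate 1 (log2 0.96). TIMP4, a metalloprotease inhibitor, had 0.844, 0.952 and 0.888 in CRT35 Combo and 31.6, 34.4 and 50.2 in CRT34 Combo (log2 -4.36, adjusted p = 0.000625). PLAT, tissue plasminogen activator, MMP19 and ADAMTS2 were called higher and ADAMTS5, an aggrecanase, lower (log2 1.30, 1.11, 1.35 and -1.92). PLAT ended when any 1 of CRT35 Combo replicate 2 and CRT34 Combo replicate 3 was left out (adjusted p 0.124 to 0.146) and MMP19 when any 1 of CRT35 Combo replicates 1 and 3 and CRT34 Combo replicates 1 and 2 was left out (adjusted p 0.0586 to 0.152). ADAMTS2 ended when any 1 of CRT35 Combo replicates 2 and 3 and CRT34 Combo replicates 1 and 2 was left out (adjusted p 0.0539 to 0.177) and ADAMTS5 when any 1 of CRT35 Combo replicates 1, 2 and 3 and CRT34 Combo replicates 1 and 2 was left out (adjusted p 0.054 to 0.117). MMP1, interstitial collagenase, picked after its values were seen, spanned a wide range in CRT34 (7836, 4129 and 3281 in CRT35 Combo, against 626, 3079 and 25199 in CRT34 Combo) and was not called (adjusted p = 0.848).

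Of 12 fibroblast markers tested, 5 were higher and 0 lower, or 4 and 0 without CRT34 Combo replicate 3. The summed level of the 15 markers listed ran from 352071 to 558023 in CRT35 Combo and from 160673 to 187864 in CRT34 Combo, and without COL1A1 and COL1A2 it ran from 139603 to 206942 in CRT35 Combo and from 105661 to 131854 in CRT34 Combo. The genes called were COL1A1, COL1A2, PDGFRB, PDPN and S100A4, while POSTN, which was not on the list, was lower. PDPN, podoplanin, had 331, 544 and 585 in CRT35 Combo, against 6.80, 19.3 and 98.0 in CRT34 Combo (log2 4.24, SE 0.64, adjusted p = 0.000198), and PDGFRB, the platelet-derived growth factor receptor beta, had 5547, 4159 and 7274 in CRT35 Combo and 1667, 874 and 3809.5 in CRT34 Combo (log2 1.64, SE 0.37, adjusted p = 0.00571). S100A4 had a log2 difference of 1.08 (adjusted p = 0.0135) and ended when any 1 of CRT35 Combo replicate 1 and CRT34 Combo replicate 2 was left out (adjusted p 0.0671 to 0.0813). DCN and LUM, small proteoglycans that also mark fibroblasts, were not called (log2 -0.71 and -0.53, adjusted p = 0.41 and 0.199). Whether other cells took part in these values was not tested. Of 11 leukocyte markers, CD4 was lower (73.3, 37.5 and 38.6 in CRT35 Combo, against 997, 948 and 1022 in CRT34 Combo) and ITGAX was higher (log2 1.33, adjusted p = 0.0112), and of 13 endothelial markers EGFL7 and ROBO4 were higher and EMCN was lower (log2 1.88, 1.27 and -2.78), with 4 higher and 2 lower without CRT34 Combo replicate 3. The EMCN call ended without CRT35 Combo replicate 2 (adjusted p = 0.0856).

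Smooth muscle and contractile genes had 7 of 24 tested called lower and 1 higher on inhibitors, with a median of -0.46, and 11 lower and 2 higher in DMSO, with a median of -0.81. ACTA2, smooth muscle actin, had 3301, 2373 and 2996 in CRT35 Combo, against 14256, 9755 and 11277 in CRT34 Combo (log2 -2.02, SE 0.41, adjusted p = 0.00244). MYL9, a myosin light chain, had 9777, 10021 and 11906 in CRT35 Combo and 28399, 26748 and 17385 in CRT34 Combo (log2 -1.17, adjusted p = 0.00381). MYLK, myosin light chain kinase, and LMOD1, leiomodin, had log2 differences of -1.56 and -2.89 (adjusted p = 0.0065 and 0.00312). SYNPO2, an actin-binding protein, went the other way (688, 434 and 439.7 in CRT35 Combo, against 124, 93.3 and 67.3 in CRT34 Combo, log2 2.45, adjusted p = 8.53e-05). MYOCD, myocardin, the coactivator that drives smooth muscle genes, named here after its values were seen, had 2337, 2781 and 2894 in CRT35 Combo and 10056, 10493 and 13067 in CRT34 Combo (log2 -2.06, adjusted p = 0.034). Its libraries did not overlap, but the call ended when any 1 of CRT35 Combo replicates 1, 2 and 3 and CRT34 Combo replicates 1, 2 and 3 was left out (adjusted p 0.055 to 0.0911).

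**Figure D4:**
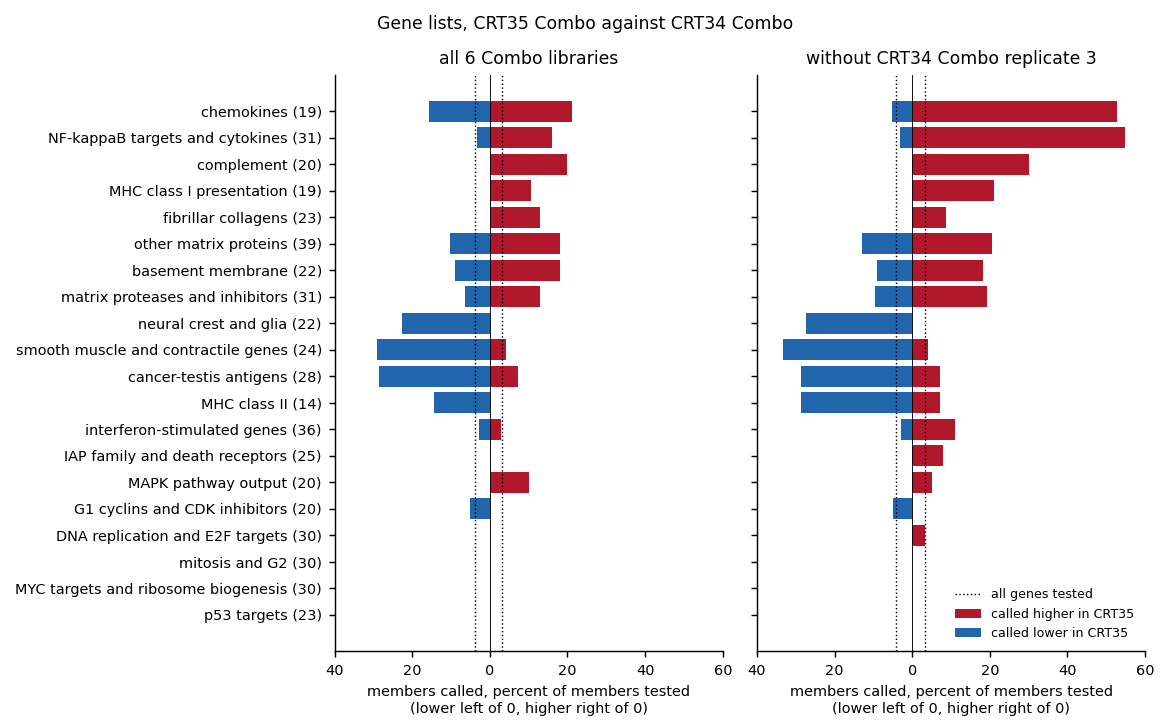
Percent of the tested members of 20 gene lists (number tested in brackets) called lower (blue, to the left) or higher (red, to the right) in CRT35 Combo against CRT34 Combo, with all 6 libraries and without CRT34 Combo replicate 3, and dotted lines at the share of all genes. Chemokines called higher numbered 10 of 19 without that library and 4 of 19 with it, while cancer-testis antigens stood at 8 of 28 lower in both panels.

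In the TGF-beta pathway 4 of 28 genes were higher and 2 lower. FST, follistatin, a trap for activins, had 2641, 4969 and 6554 in CRT35 Combo and 607, 1643 and 553 in CRT34 Combo (log2 2.43, adjusted p = 0.000913), and LTBP1, which stores latent TGF-beta in the matrix, had a log2 difference of 2.21 (adjusted p = 0.00108). TGFBR3, betaglycan, and ID3, a target of BMP signaling, were higher by 1.30 and 1.03 on the log2 scale (adjusted p = 0.00493 and 0.0183). TGFB2, a TGF-beta ligand, had 6676, 6226 and 3869 in CRT35 Combo and 15422, 24015 and 8261 in CRT34 Combo (log2 -1.42, adjusted p = 0.0229), and PMEPA1, a target gene of the pathway, had 102, 211 and 61.9 in CRT35 Combo and 394, 1263 and 494 in CRT34 Combo (log2 -2.50, adjusted p = 0.00887). ID3 ended when any 1 of CRT35 Combo replicate 1 and CRT34 Combo replicates 2 and 3 was left out (adjusted p 0.058 to 0.1). TGFB2 ended when any 1 of CRT35 Combo replicate 3 and CRT34 Combo replicates 1 and 2 was left out (adjusted p 0.0524 to 0.138), and PMEPA1 ended when any 1 of CRT35 Combo replicate 3 and CRT34 Combo replicate 2 was left out (adjusted p 0.0528 to 0.0604). Of 28 Wnt pathway genes, LEF1, a nuclear effector, and LGR5, an R-spondin receptor, were lower, and FZD8, TCF7L1 and WNT5B were higher. LEF1 had 40.1, 41.6 and 37.9 in CRT35 Combo and 239.8, 386 and 198 in CRT34 Combo (log2 -2.70, adjusted p = 5.34e-06). LGR5 ended without CRT35 Combo replicate 3 (adjusted p = 0.0642), TCF7L1 when any 1 of CRT35 Combo replicates 1 and 3 and CRT34 Combo replicate 2 was left out (adjusted p 0.0502 to 0.0731) and WNT5B when any 1 of CRT35 Combo replicates 2 and 3 and CRT34 Combo replicates 1 and 3 was left out (adjusted p 0.0946 to 0.155). WNT5A, a ligand of non-canonical signaling, had 17948, 12693 and 8227 in CRT35 Combo and 5731, 7285 and 26226 in CRT34 Combo and was not called (adjusted p = 0.759). Of 20 genes listed for YAP and TEAD, mostly targets, 0 were higher and 2 lower, TGFB2 and WWTR1, beside 6.91% of all genes called. WWTR1, which codes for TAZ, was at -1.03 and under the fold threshold when any 1 of CRT35 Combo replicate 3 and CRT34 Combo replicate 3 was left out (log2 -0.88 and -0.94).

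Both lines lack SOX10, yet 5 of 22 neural crest and glial genes were lower in CRT35 and 0 higher, with a median of -0.69 on inhibitors and in DMSO. POU3F2, the neural factor BRN2, had 116, 179.6 and 167 in CRT35 Combo, against 567, 398 and 313 in CRT34 Combo (log2 -1.44, adjusted p = 0.00142). CDH19, a cadherin of Schwann cell precursors, had 1.48, 0 and 0 in CRT35 Combo and 12.3, 24.6 and 46.1 in CRT34 Combo. S100B, a glial calcium-binding protein, had 0, 1.65 and 0 in CRT35 Combo and 16.3, 11.4 and 8.20 in CRT34 Combo. SOX11, a related factor, was listed at 0 in all 3 CRT35 Combo libraries and had 25.3, 7.52 and 18.3 in CRT34 Combo. All 5 calls were kept in each of the 6 analyses that left out 1 library. In CRT35 Combo, however, CDH19, S100B and SOX11 lay at or near 0, where the pseudocount weighs on the size of the difference. ERBB3 and NGFR, receptors of the neural crest, were not called (adjusted p = 0.895 and 0.379). Of 13 melanocytic genes tested out of 20, MITF, the lineage's master regulator, was called lower (4116, 2934 and 3097 in CRT35 Combo, against 8954, 10247 and 3772 in CRT34 Combo, log2 -1.07, adjusted p = 0.0265), and both lines lay above the 1502, 1448 and 1389.96 of parental cells. CRT34 replicate 3 lay within the CRT35 range, the log2 difference without it was -1.52, and the call ended when any 1 of CRT35 Combo replicates 2 and 3 and CRT34 Combo replicates 1 and 2 was left out (adjusted p 0.0838 to 0.153).

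Cancer-testis antigens had 2 of 28 members higher and 8 lower, and all 10 calls were kept in each analysis that left out 1 library. PAGE1 had 26.9, 29.0 and 13.1 in CRT35 Combo, against 405, 543 and 274 in CRT34 Combo (log2 -4.11, SE 0.36, adjusted p = 3.55e-07). MAGEC1 had 73.1, 89.5 and 24.1 in CRT35 Combo and 434, 604 and 252 in CRT34 Combo (log2 -2.88, adjusted p = 0.000209), and SSX4 and GAGE2A had log2 differences of -3.96 and -2.31 (adjusted p = 4.53e-06 and 0.000109). SSX1 was higher with CTAG2 (14.3, 18.0 and 17.7 in CRT35 Combo, against 0.874, 1.85 and 2.64 in CRT34 Combo). Many of these genes lie on the X chromosome and have near-identical copies, so the reads of 1 copy are uncertain.

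Complement and MHC class I genes had members called higher and none lower. Of 20 complement genes, 4 were higher and 0 lower, with a median of 0.85 on inhibitors and 0.21 in DMSO. C2, a component of the classical pathway, had 350.01, 177 and 216 in CRT35 Combo, against 29.0, 26.2 and 44.8 in CRT34 Combo (log2 2.83, adjusted p = 0.00217). C3, the central component, had 123547, 37491 and 40518 in CRT35 Combo and 4118, 2586 and 71881 in CRT34 Combo, with replicate 3 of CRT34 inside the CRT35 range. C3 (adjusted p = 0.0346) ended when any 1 of CRT35 Combo replicates 1, 2 and 3 and CRT34 Combo replicates 1 and 2 was left out (adjusted p 0.0505 to 0.207). C1R (adjusted p = 0.0354) ended when any 1 of CRT35 Combo replicates 1 and 3 and CRT34 Combo replicates 1 and 2 was left out (adjusted p 0.0774 to 0.203). Of 19 genes of MHC class I presentation, HLA-B and HLA-C were higher, with a list median of 0.69 on inhibitors and 0.18 in DMSO, and 4 were higher without CRT34 Combo replicate 3. HLA-B had 31138, 23671 and 27875 in CRT35 Combo and 10961, 9520.3 and 16749 in CRT34 Combo (log2 1.18, SE 0.22, adjusted p = 0.00134), and HLA-C had a log2 difference of 1.25 (adjusted p = 0.00159). These genes are highly alike, and reads may be shared among them. Of 14 MHC class II genes, HLA-DRA was lower (15.1, 13.3 and 25.0 in CRT35 Combo, against 89.0, 48.1 and 60.5 in CRT34 Combo), as was HLA-DQB1, listed at 0 in all 3 CRT35 Combo libraries and at 7.67, 10.1 and 2.06 in CRT34 Combo. The HLA-DQB1 call ended without CRT34 Combo replicate 2 (adjusted p = 0.0832), and without CRT34 Combo replicate 3 the list had 1 higher and 4 lower. Of 36 interferon-stimulated genes, MX1, an antiviral GTPase, was higher (1638, 1399 and 1752 in CRT35 Combo, against 501, 334 and 533 in CRT34 Combo, log2 1.83) and CMPK2 was lower (log2 -1.39), against 4 higher and 1 lower without CRT34 Combo replicate 3. With all libraries that share was no higher than the 6.91% of all genes called.

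Genes that read out the drug targets and proliferation were also counted. Of 20 MAPK pathway output genes 2 were higher and 0 lower, beside 6.91% called of all genes, with 6 at an unadjusted p under 0.05 and a median of 0.04, and without CRT34 Combo replicate 3 the count was 1. These were EPHA4, at 1.15 (adjusted p = 0.015), and IER3, at 1.23 (adjusted p = 0.0322). EPHA4 ended when any 1 of CRT35 Combo replicate 1 and CRT34 Combo replicate 3 was left out (adjusted p 0.0714 to 0.0832) and IER3 when any 1 of CRT35 Combo replicates 1 and 2 and CRT34 Combo replicates 1 and 2 was left out (adjusted p 0.085 to 0.121). DUSP6 had 4491, 3246 and 1562 in CRT35 Combo and 1751, 1931 and 2173 in CRT34 Combo (log2 0.54, SE 0.27, adjusted p = 0.206). Limma called 0 of 30 DNA replication genes (2 at an unadjusted p under 0.05), 0 of 30 mitosis genes (3), 0 of 30 MYC targets (6), 0 of 23 p53 targets (5), 0 of 24 genes of the unfolded protein response (5) and 0 of 20 phosphodiesterases and adenylyl cyclases (5). The share of all genes at that unadjusted p was not counted. These counts and that of the MAPK list therefore cannot be read as an excess. The mitosis list had a median of 0.44 all the same, and MKI67, the Ki-67 gene, had 12646, 29130.5 and 36438 in CRT35 Combo and 12001, 16362 and 24510.1 in CRT34 Combo (log2 0.49, adjusted p = 0.477). CDKN1A, the p21 gene, had 52408, 32622 and 16035 in CRT35 Combo and 50233, 37169 and 14494 in CRT34 Combo, lowest in replicate 3 of each line (adjusted p = 0.996). CCND1 behaved the same way (20912, 29317 and 7959.6 in CRT35 Combo, against 20826, 36725 and 5753 in CRT34 Combo, adjusted p = 0.967). CCND3 was not called (adjusted p = 0.229), and CCNE1, cyclin E1, was the 1 gene called of 20 G1 cyclins and CDK inhibitors (log2 -1.005, adjusted p = 0.0123). It ended when any 1 of CRT35 Combo replicate 3 and CRT34 Combo replicate 2 was left out (adjusted p 0.0716 to 0.0755).

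Of 32 receptor tyrosine kinases 1 was higher and 1 lower, close to the 6.91% of all genes called, or 3 and 2 without CRT34 Combo replicate 3. PDGFRB was higher and EPHA3 lower (1562, 1173 and 1360.4 in CRT35 Combo, against 3681, 2951 and 3514 in CRT34 Combo, log2 -1.31, adjusted p = 0.00513). EGFR had 6701, 6814 and 5439 in CRT35 Combo and 2364, 3513 and 4953 in CRT34 Combo, a log2 difference of 0.86 that passed the p but not the fold threshold (SE 0.20, adjusted p = 0.00774). Without CRT34 Combo replicate 3 it was called at 1.12 (adjusted p = 0.00057). AXL, another receptor linked to drug tolerance, had 19244, 30639 and 32661 in CRT35 Combo and 15513, 19846 and 8578 in CRT34 Combo (log2 0.96, adjusted p = 0.0422, and 0.61 and 0.196 without replicate 3). Among 30 growth factor ligands, the EGFR ligands EGF and TGFA were lower, EGF at 304, 458 and 534 in CRT35 Combo, against 2624, 2445 and 1256 in CRT34 Combo (log2 -2.25, adjusted p = 0.000614). TGFA had 362, 367 and 113 in CRT35 Combo and 1885, 2114 and 1435 in CRT34 Combo (log2 -2.85, adjusted p = 0.00125), both below the 14230.01, 15303 and 18141 of parental cells. CSF1 and PGF were higher (log2 1.58 and 1.07, adjusted p = 0.00939 and 0.00232), CSF1 ending when any 1 of CRT35 Combo replicate 3 and CRT34 Combo replicate 2 was left out (adjusted p 0.0648 to 0.0674) and PGF when any 1 of CRT35 Combo replicate 3 and CRT34 Combo replicate 2 was left out (log2 0.96 and 0.98).

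Of 20 integrins (3 higher and 1 lower, or 2 and 0 without CRT34 Combo replicate 3), ITGB2, ITGA10 and ITGA6 were higher and ITGA8 was lower, the last with 4.27, 4.86 and 3.77 in CRT35 Combo, against 7.40, 30.7 and 50.9 in CRT34 Combo, and an adjusted p of 0.0341. ITGA8 ended when any 1 of CRT35 Combo replicates 1, 2 and 3 and CRT34 Combo replicates 2 and 3 was left out (adjusted p 0.0734 to 0.145), and ITGA6 (log2 1.08) was under the fold threshold when any 1 of CRT35 Combo replicate 2 and CRT34 Combo replicate 3 was left out (log2 0.90 and 0.79). Of 21 EMT factors and cadherins, FOXC2, CDH6 and PRRX1 were higher (log2 2.64, 1.89 and 1.59) and CDH19 was lower. PRRX1, a mesenchymal homeobox factor, had 9115, 6340.3 and 6594 in CRT35 Combo and 1519, 1354 and 6783 in CRT34 Combo, with replicate 3 of CRT34 inside the CRT35 range, and ended when any 1 of CRT35 Combo replicate 1 and CRT34 Combo replicates 1 and 2 was left out (adjusted p 0.0613 to 0.101). ZEB1 and CDH2, which codes for N-cadherin, were not called (adjusted p = 0.391 and 0.869). Among 23 genes of oxidative stress and iron, AKR1C2 and MT2A were higher (log2 2.23 and 1.21) with AKR1C1 (log2 1.30, adjusted p = 0.0446), which ended with the replicate block (adjusted p = 0.0508) and when any 1 of CRT35 Combo replicates 1, 2 and 3 and CRT34 Combo replicates 1 and 2 was left out (adjusted p 0.0882 to 0.127). The AKR1C genes share much of their sequence, so reads may be split among them. MT1F, a metallothionein, was listed at 0 in all 3 CRT35 Combo libraries and had 19.7, 9.17 and 28.7 in CRT34 Combo. Of 30 hypoxia and glycolysis genes, SLC16A3, a lactate exporter, was higher (4245, 3523 and 3249 in CRT35 Combo, against 1641, 1716 and 1515 in CRT34 Combo, adjusted p = 0.000245), beside 6.91% of all genes called. Of 20 keratin and desmosome genes KRT81 and KRT86, which are near-identical, were higher (log2 1.56 and 2.66), and KRT80 was lower (log2 -1.17) and ended when any 1 of CRT35 Combo replicate 3 and CRT34 Combo replicates 1 and 2 was left out (adjusted p 0.0526 to 0.111). Of 36 HOX genes HOXA6 and HOXC5 were higher and HOXC12 was lower (log2 1.41, 1.11 and -1.55), close to the 6.91% of all genes called. HOXC5 ended without CRT35 Combo replicate 3 (log2 1.00).

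The line difference also had a pattern by chromosome, seen in genes with a mean of at least 100. The median log2 difference was -0.46 over 734 genes of chromosome 3, -0.36 over 237 genes of chromosome 13, -0.35 over 345 genes of chromosome 20 and 0.30 over 428 genes of chromosome 14. Without CRT34 Combo replicate 3 these medians were -0.45, -0.38, -0.40 and 0.30, and in DMSO they were -0.45, -0.28, -0.43 and 0.35. On chromosome 13, which carries COL4A1, COL4A2, HS6ST3 and POSTN, 42 of the 237 genes were called lower and 1 higher, 18.1% in all. Of all 13236 genes with such a mean, 5.74% were called. Of the 15 mitochondrial genes all 15 lay below 0, beside 47.8% of the 13236, with a median of -0.37, and 0 were called. Regions picked after their values were seen stood out further. On chromosome 5, 109 genes that start below 50 Mb had a median of 0.76, with 104 of them above 0, against 0.02 for the 542 other genes of that chromosome. SDHA, a subunit of succinate dehydrogenase and the 1 housekeeping gene called of 20, lies there (chr5:218303-257082, log2 1.24, adjusted p = 9.73e-06). On chromosome 13, 21 genes from 90 to 100 Mb had a median of -1.31, with 15 called lower, beside 338 of the 13236. HS6ST3 is in that span (chr13:96090107-96839562). Copy number was not measured here, and its part in these values was not tested.

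**Figure D5:**
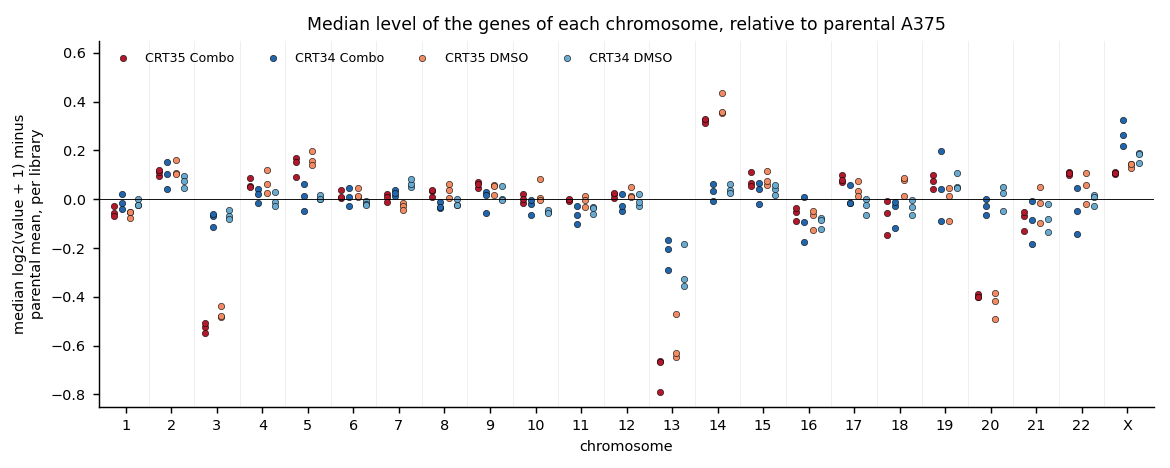
Median over the genes of each chromosome (mean of at least 100) of log2(value + 1) in a library minus the parental mean, for the 3 libraries of each CRT group. CRT35 libraries lie lower than CRT34 libraries on chromosomes 3, 13 and 20 and higher on chromosome 14, in Combo and in DMSO alike.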

How the data were processed

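The authors sequenced messenger RNA with paired-end 101 bp reads. Different TruSeq kits are named in the labels and in the methods. The submitters' processing notes list GRCh38, DESeq2, Picard, RSEM and STAR 2.6.1a. The deposited signal values appear to be RSEM gene counts that the authors had divided by size factors, since the median ratio of every library to a common reference was 1.013, and whole reads could not be recovered from them, so no count model was used. Depth is approximate, read from the steps between low values.

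Values were log2-transformed with a pseudocount of 1, and 19290 of 32889 genes with any value above 0 had a value of 10 or more in at least 3 of 21 libraries. One limma-trend model (limma 3.58.1, R 4.3.3) with a mean for each of 7 groups was fitted to all 21 libraries and adjusted by the Benjamini-Hochberg method over all genes. The fit was tested on simulated data first. Same-numbered Combo libraries of the lines deviated together (r = 0.218, 0.253 and 0.207 for numbers 1 to 3), so the numbers were taken to pair them and a replicate block was an alternative, while DMSO libraries did not (r = -0.019 to 0.032). Symbols, types and positions came from GENCODE 44, which matched 58472 of 58870 identifiers. No 2 libraries held identical values.

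Named genes were the 12 higher and 12 lower protein-coding genes with the largest log2 difference. They had to be called with and without CRT34 Combo replicate 3, to have libraries that did not overlap, and to have a mean of 500 or more in the higher line. To these were added a panel discussed by the study and, for each of 40 gene lists, up to 4 called members a direction with the lowest p, or all where 5 or fewer were called. A gene added after its values were seen is marked as such. Some genes that meet this rule are not reported here. The comparison, members and lists were chosen with earlier results of these data known. Alternatives were leaving out each library, the block, only the 6 Combo libraries, other filters, a pseudocount of 10 and other scalings. Sequences came from RefSeq tables of GRCh38.p14.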

Additional observations from a re-analysis of the deposited data

Results flagged for a closer look

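TGFB2-OT1 and OR51B5 stood out because the CRT35 to CRT34 difference on inhibitors differed from that in DMSO by the test of that difference. For TGFB2-OT1 the adjusted p of the difference of the line effects was 2.3e-05, with 0 in all 3 CRT35 Combo libraries and 294, 182 and 97.3 in CRT34 Combo, and 0 in all 6 DMSO libraries of the lines. For OR51B5 it was 0.00523 at a log2 difference of -2.39, with all 3 CRT35 Combo libraries below all 3 of CRT34 Combo.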

How the results depend on the processing

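Calls between the lines on inhibitors ran from 964 to 1480 when 1 library was left out (445 to 862 higher, 519 to 826 lower). Over the other alternatives they ran from 1493 with quantile normalization to 800 with only the 6 Combo libraries in the fit (332 higher and 468 lower). With only those 6 libraries and the replicate block there were 953 (407 higher). Calls in DMSO kept within 1.5 times of their count under the alternatives run. The difference of the line effects, 2 calls with all libraries, ran from 2 to 223 when 1 library was left out, with 223 without CRT34 Combo replicate 3, 10 without CRT35 DMSO replicate 1, 6 without CRT34 Combo replicate 1, 5 without CRT35 Combo replicate 1 and 4 without CRT34 DMSO replicate 1. It was 16 with the replicate block, 12 with a pseudocount of 10, and 4 each with no filter, equal totals and quantile normalization. Leaving out CRT34 Combo replicate 3 and CRT35 DMSO replicate 1 together, chosen after the data were seen, gave 288. The cause was not tested. Of 360 alternatives over the 24 named genes, 351 kept the call and 9 ended it, for CSF2, IL1B, IL1A, CXCL3 and BDKRB1, and 0 reversed a direction. Leaving out CRT34 Combo replicate 3 could not end a call here, because the naming rule required that call. The genes were also picked for large differences and libraries that did not overlap, so these counts do not describe calls in general. With all libraries the replicate block changed no call of the 24, and among the list genes described it ended those of COL1A2, AKR1C1 and ACKR3 and gained CXCL8. Of 180 counts over lists 32 moved by more than 1.5 times, and 11 of 60 chromosome medians moved beyond the spread between replicates. With 3 libraries a group and 1 line each, smaller differences may have gone uncalled, and values under 10 are near the limit set by the pseudocount of 1.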

Other observations

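Without CRT34 Combo replicate 3, the genes with the largest called difference of the line effects included secreted factors and matrix proteases not named above. The difference was 8.24 on the log2 scale for CSF3, the growth factor G-CSF (limma, adjusted p = 0.00208), and 7.69, 6.05 and 5.37 for the proteases MMP9, MMP13 and MMP3 (adjusted p = 0.0424, 0.00775 and 0.0105). PTGS2, the inducible prostaglandin synthase, and CHI3L1, a chitinase-like glycoprotein, had differences of 5.47 and 5.35 (adjusted p = 0.00479 and 0.0226). CSF3 averaged 27.0 in CRT35 Combo, against 0.697 in CRT34 Combo replicates 1 and 2, and 81.9 in CRT35 DMSO, against 1387 in CRT34 DMSO, so the line that was higher differed between the media. Both MMP9 and PTGS2 also averaged less in CRT35 DMSO than in CRT34 DMSO. In the other direction, IL18, SPP1, which codes for osteopontin, and KITLG, the KIT ligand, had differences of -3.80, -3.21 and -2.87 (adjusted p = 0.0251, 0.00192 and 0.0431). With all libraries these genes were not called. CSF3 then had a difference of 5.80, MMP9 4.85, MMP13 3.57, MMP3 3.62, PTGS2 3.54 and CHI3L1 4.24, and IL18, SPP1 and KITLG had -2.99, -2.58 and -2.36, at adjusted p from 0.14 to 0.757.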
